A study of Homo sapiens with 3 samples.

Results

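The circular RNA profile of J82, a human bladder cancer cell line, was set against that of SV-HUC-1, an immortalized line from the urothelium. Urothelium is the epithelium that lines the urinary tract. A circRNA was included when it had at least 10 reads in either library. This rule took 3996 of the 10562 circRNAs in the deposited table, with 3042 reaching 10 reads in SV-HUC-1 and 2891 doing so in J82, 1937 of them in both. At the boundary, 410 included circRNAs had exactly 10 reads in the higher of their libraries and 503 just outside it had 9.

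The study examined circRNA expression in 3 cell types, and the bladder cancer line T24 is given beside the others where it helps. Each line is represented by 1 library from untreated cells as far as the labels say, made from total RNA. Ribosomal RNA was removed and RNase R, an exonuclease, was used in all 3 to degrade linear RNA, so host gene transcription was not measured apart from its circular products. One line with 1 library stands for each cell type, so differences carry counting error only and have no replicate check, and a difference between J82 and SV-HUC-1 cannot be told apart from a difference between 2 cultures or 2 library preparations.

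CircRNAs are closed RNA loops that form when a downstream splice donor joins an upstream splice acceptor of the same transcript, a reaction called back-splicing. They have no free ends, which makes them resistant to exonucleases such as RNase R and often long-lived in the cell. Most consist of exons of protein-coding genes, the host genes, and one gene can give many circRNAs that differ in the splice sites they join. In urothelial cells, as in other epithelia, their levels depend on how strongly the host gene is transcribed, how often it is back-spliced and how fast the loop is lost or diluted by cell division.

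The profiles spread widely around a common centre, which the authors' scaling, named as TMM-normalized, is meant to set. Of the 3996 circRNAs, 919 (23%) were at least 2-fold higher in J82 and 938 (23.5%) at least 2-fold lower, on the scale of log2(CPM + 0.0211), where CPM is the authors' read count scaled to library size and 0.0211 CPM is 1 read in J82. The median log2 difference of J82 minus SV-HUC-1 was -0.01, with quartiles at -0.93 and 0.92, and 2139 (53.5%) lay within 2-fold. When the exact 95% counting interval of the CPM ratio also had to leave out 1, 762 (19.1%) were higher and 730 (18.3%) lower. This stricter rule, the interval rule, is the one meant below for circRNAs and host genes called higher or lower, except where a count is given as at least 2-fold. Past 4-fold, 366 were higher and 326 lower. In the J82 library 92 of the circRNAs had 0 reads, and in the SV-HUC-1 library 89 had 0 reads.

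All reads assigned to listed circRNAs came to 128055 in SV-HUC-1 against 126041 in J82, with 108574 in T24. The included circRNAs held 80.5% of them in SV-HUC-1 and 81.1% in J82, with a median of 14 and 13 reads. A typical circRNA was therefore measured with few reads, and a ratio for one of them has a wide interval. The share past 2-fold was largest at low counts, in part through the inclusion rule. With at least 10 reads needed in one library, a mean under 0.2 CPM requires the other library to be lower. Of 1207 circRNAs with a mean under 0.2 CPM, 33.9% were at least 2-fold higher in J82 and 36.4% at least 2-fold lower. Of 83 with a mean of 3 CPM or more, these shares were 13.3% and 16.9%.

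**Figure D1:**
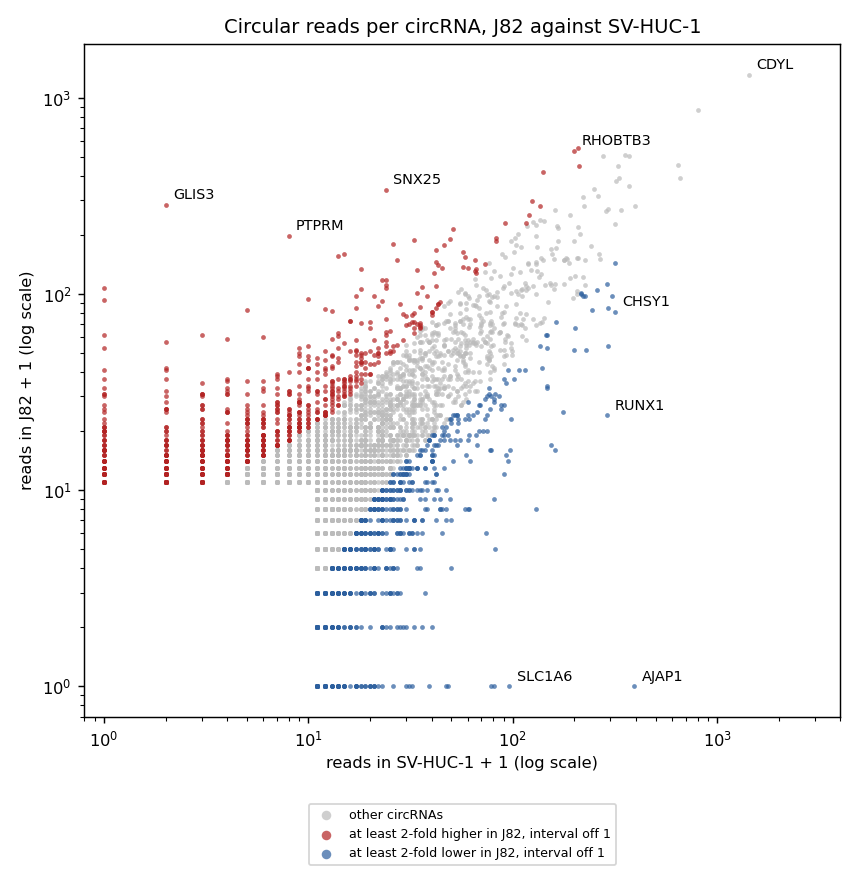
Reads per circRNA in SV-HUC-1 (x axis) and J82 (y axis), each with 1 added, on log scales. Each point is 1 of the 3996 circRNAs. Red marks the 762 at least 2-fold higher in J82 with a counting interval that leaves out 1, and blue the 730 lower. CDYL lies near the diagonal at 1428 and 1311 reads, while AJAP1 has 392 reads in SV-HUC-1 but 0 in J82.

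In CPM, the circRNAs higher in J82 gained 684 in sum and those lower lost 591. The first 247 circRNAs by size made up 50% of the gain and 285 made up 50% of the loss. The largest gain was that of hsa_circ_0087960 of LPAR1, a receptor for lysophosphatidic acid, with 208 reads in SV-HUC-1 against 553 in J82, with 862 in T24, a ratio of J82 to SV-HUC-1 of 2.80 (95% counting interval 2.38 to 3.30). Both cancer lines were above SV-HUC-1, T24 more so.

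SNX25 encodes a sorting nexin, a protein of endosomal membrane traffic. Its circRNA hsa_circ_0004874 had 23 reads in SV-HUC-1 against 338 in J82, with 51 in T24, 15.5-fold (10.1 to 24.8) higher in J82. J82 stood far above both other lines. A similar pattern appeared for PTPRM, a receptor-type tyrosine phosphatase that mediates cell-cell adhesion, whose hsa_circ_0007144 had 7, 197 and 0 reads and was 29.6-fold (14.1 to 74.7) higher in J82. T24 had no read of it, so the 2 cancer lines lay on opposite sides of SV-HUC-1.

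MAN1A2 encodes a Golgi mannosidase that trims N-glycans, and hsa_circ_0000118 of this gene had 140 reads in SV-HUC-1 against 418 in J82, with 159 in T24, 3.15-fold (2.59 to 3.84) higher in J82. Of CORO1C, an actin-binding coronin, hsa_circ_0000437 had 209, 448 and 526 reads and was 2.26-fold (1.91 to 2.67) higher. ASAP1, a GTPase-activating protein for Arf that acts at focal adhesions, gave hsa_circ_0085616 with 123, 298 and 251 reads, a 2.55-fold (2.06 to 3.18) difference. In these last 2, J82 and T24 were both above SV-HUC-1, whereas for MAN1A2 T24 lay close to it. PTK2, which encodes focal adhesion kinase, and HIPK3, a nuclear kinase, also ranked among the 10 largest gains by CPM but stayed within 2-fold, with ratios of 1.93 (1.66 to 2.24) and 1.53 (1.33 to 1.76).

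The largest loss was that of AJAP1, a transmembrane protein associated with adherens junctions. Its hsa_circ_0009438 had 392 reads in SV-HUC-1 but 0 in J82 as in T24, at least 124-fold lower in J82 when 3 reads are taken as the limit that a count of 0 allows. RUNX1, a runt-domain transcription factor, came next. Its hsa_circ_0002360 had 288 reads in SV-HUC-1 against 23 in J82, with 19 in T24 and was 11.9-fold (7.77 to 19.1) lower in J82. For both genes the cancer lines were alike in being low.

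MEIS3, a homeobox transcription factor, gave hsa_circ_0003449 with 290 reads in SV-HUC-1 against 53 in J82, with 13 in T24, 5.19-fold (3.86 to 7.10) lower in J82. CHSY1 makes the chondroitin sulfate chains of proteoglycans, and its hsa_circ_0005019 had 316, 80 and 73 reads, 3.75-fold (2.93 to 4.85) lower. NDUFA10 is a subunit of respiratory complex I, and its hsa_circ_0001118 had 305, 97 and 126 reads, 2.98-fold (2.37 to 3.79) lower. All 3 were lower in both cancer lines than in SV-HUC-1. GRHL2, a grainyhead transcription factor of epithelial cells, gave hsa_circ_0085173 with 292, 84 and 0 reads, so J82 lay between SV-HUC-1 and T24. MYO9B, an unconventional myosin, was 2.46-fold (1.97 to 3.09) lower in hsa_circ_0000907, with 288 reads in SV-HUC-1 against 111 in J82, with 185 in T24.

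Measured by fold, the extremes were circRNAs that one library lacked. Of the 12 highest, 10 had 0 reads in SV-HUC-1. ME3, a mitochondrial malic enzyme, gave hsa_circ_0023966 with 0 reads in SV-HUC-1 against 61 in J82, with 21 in T24, at least 21.4-fold higher in J82. T24 had it as well, at a lower count than J82. NPAS3, a transcription factor with a PAS domain, had 0, 30 and 0 reads in hsa_circ_0101677, and FGD3, an exchange factor for Cdc42, had the same counts in hsa_circ_0139356. Each was at least 10.5-fold higher in J82, which alone of the 3 libraries had reads of them.

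All of the 12 lowest had 0 reads in J82. SLC1A6, a glutamate transporter, stood second after AJAP1, with 95 reads of hsa_circ_0109167 in SV-HUC-1 but 0 in J82 as in T24, at least 30.1-fold lower in J82. A circRNA of COL5A1, a chain of fibrillar collagen type V, without circBase ID (hg19 chromosome 9, 137619111 to 137660309, plus strand), had 47, 0 and 0 reads. STAC, an adaptor protein of muscle calcium channels, had 31, 0 and 0 reads in hsa_circ_0064809. These 3 were found in SV-HUC-1 alone. Another 3 of the 12 have no annotated host gene in the table and carry circBank names after KIRREL3 (hsa_circ_0008111, 46 reads in SV-HUC-1 but 1 in T24) and KCNQ5 (hsa_circ_0132255 with 29 reads and hsa_circ_0002930 with 25).

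**Figure D2:**
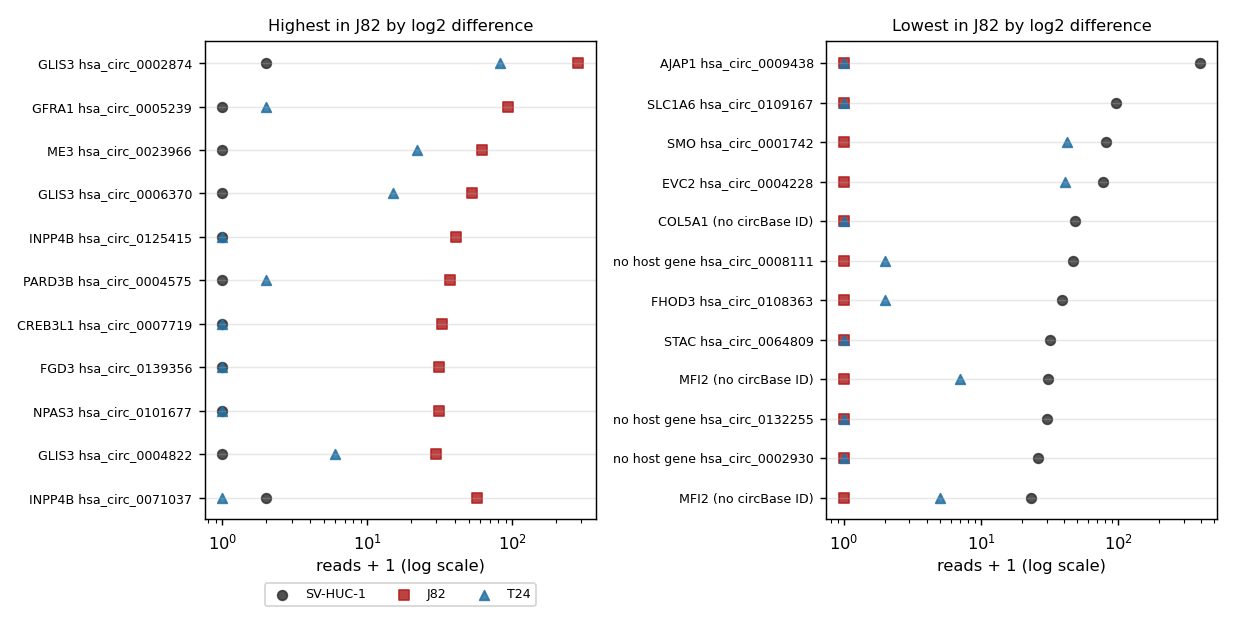
Reads plus 1 (x axis, log scale) of circRNAs with the highest (left) and the lowest (right) log2 difference of J82 minus SV-HUC-1 (y axis, host gene and circBase ID), in SV-HUC-1 (circles), J82 (squares) and T24 (triangles), 1 library each. All on the right have 0 reads in J82. T24 sits near J82 for AJAP1 and SLC1A6 but between the others for SMO and EVC2, at 41 and 40 reads.

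The starts of the genes at these extremes varied in base composition, with overlap between genes higher and genes lower in J82. The promoter windows of AJAP1 and SLC1A6, the lowest, and of GLIS3 and GFRA1, among the highest, are shown because the circRNAs of these genes had many reads in one line and at most 1 per circRNA in the other. They are RefSeq sequences of build GRCh38.p14, from 250 bases before the gene's start to 50 after it, 5′ to 3′ on the gene's strand, with each CG dinucleotide in capitals. The windows lie at chr1:4654359-4654658 (plus strand), chr19:15010594-15010893 (minus), chr9:4298447-4298746 (minus) and chr10:116274656-116274955 (minus). Which start each line uses was not measured.
AJAP1 promoter: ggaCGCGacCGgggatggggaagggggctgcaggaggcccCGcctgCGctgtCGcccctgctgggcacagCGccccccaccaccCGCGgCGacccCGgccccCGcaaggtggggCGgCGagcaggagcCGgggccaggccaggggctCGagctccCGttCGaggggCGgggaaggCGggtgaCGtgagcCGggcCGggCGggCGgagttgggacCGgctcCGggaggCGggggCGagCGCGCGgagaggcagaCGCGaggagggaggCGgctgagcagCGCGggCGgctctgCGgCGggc
SLC1A6 promoter: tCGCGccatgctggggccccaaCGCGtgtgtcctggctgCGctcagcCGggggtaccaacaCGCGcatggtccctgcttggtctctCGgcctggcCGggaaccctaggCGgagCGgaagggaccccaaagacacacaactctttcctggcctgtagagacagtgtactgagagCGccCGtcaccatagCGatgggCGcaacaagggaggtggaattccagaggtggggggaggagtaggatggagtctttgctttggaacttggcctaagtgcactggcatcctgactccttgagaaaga
GLIS3 promoter: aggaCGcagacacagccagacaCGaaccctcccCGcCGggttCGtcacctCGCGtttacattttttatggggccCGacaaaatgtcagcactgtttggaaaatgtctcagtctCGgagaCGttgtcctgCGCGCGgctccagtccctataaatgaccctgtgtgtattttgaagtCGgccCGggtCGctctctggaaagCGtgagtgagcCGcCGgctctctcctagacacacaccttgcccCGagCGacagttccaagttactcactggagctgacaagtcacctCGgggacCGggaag
GFRA1 promoter: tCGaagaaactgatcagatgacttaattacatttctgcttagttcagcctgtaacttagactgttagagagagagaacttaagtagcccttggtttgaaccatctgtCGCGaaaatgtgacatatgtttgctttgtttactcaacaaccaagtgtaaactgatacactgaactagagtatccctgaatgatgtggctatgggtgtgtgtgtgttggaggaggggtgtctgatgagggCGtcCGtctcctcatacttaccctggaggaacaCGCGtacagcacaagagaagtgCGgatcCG

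The AJAP1 window holds 40 CG, a number that 7.61% of the 35116 promoters in the table reach. SLC1A6 has 16 (reached by 47.5%), GLIS3 23 (35.8%) and GFRA1 9 (58.4%). Other genes at the extremes, whose windows are not shown, did not follow the order of these. NPAS3 and GLCCI1, both higher in J82, have 42 and 24. STAC, EVC2 and SMO, all lower in J82, have 34, 32 and 29. CG is its own complement, so both strands give the same count. Over the 2228 of 2647 measured host genes that matched the table, the median was 29, against 28 over 369 of 437 host genes higher in J82 and 27 over 368 of 450 lower. Host genes with 0 reads in SV-HUC-1 had a median of 18.5 (quartiles 8.25 to 32.5, 30 of 32 matched). Those with 0 reads in J82 had 26 (quartiles 18 to 34, 29 of 43 matched). The difference between these small sets was not tested. No methylation or transcription start was measured here, and a CG count is a description of the letters alone.

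At the other end, 299 circRNAs differed by less than 1.1-fold between the lines. Among the 8 most abundant of these, that of CDYL, a chromodomain protein (hsa_circ_0008285), had 1428 reads in SV-HUC-1 against 1311 in J82, with 462 in T24. EXOC6B, a subunit of the exocyst that tethers secretory vesicles, had 290, 269 and 88 reads in hsa_circ_0009043. In these 2, J82 and SV-HUC-1 were close and T24 was lower. CCNB1, which encodes cyclin B1, gave 157, 150 and 223 reads in hsa_circ_0001495. ATXN10 (369 and 352 reads), RNF138 (285 and 264), FAM13B (211 and 202), ZNF292 (198 and 185) and EPHB4 (155 and 159 in SV-HUC-1 and J82) completed the set. Their ratios lay from 0.967 (0.897 to 1.04) for CDYL to 1.08 (0.861 to 1.36) for EPHB4, so the counting intervals still allow small differences even at these depths.

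In several genes every included circRNA differed in the same direction. Reads were summed over all listed circRNAs of a host gene, and 2647 host genes had at least 10 reads in either library. Of these, 489 (18.5%) were at least 2-fold higher in J82 and 522 (19.7%) at least 2-fold lower, and by the interval rule 437 (16.5%) were higher and 450 (17%) lower. Among the 367 genes with at least 3 included circRNAs, 15 had all of them higher in J82 and 10 had all lower. CircRNAs of one gene share its transcript, so they are not independent observations.

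SEMA3C, a secreted semaphorin that guides cell migration, led the first set with 6 circRNAs that had 27 reads together in SV-HUC-1 against 258 in J82. SNX25 and RHOBTB3 followed with 4 each, from 27 to 428 and from 222 to 673 reads. UTRN, which encodes utrophin, and TLE4, a Groucho-type corepressor, also had 4 each, with 26 against 91 and 15 against 79 reads. Smaller sets of 3 came from PTGR1, a reductase of prostaglandins (28 and 100 reads), INO80, a chromatin remodeller (12 and 44), and PVRL3, or nectin-3, a cell adhesion molecule (4 and 46). In all of these J82 had more reads in every included circRNA. The 3 of PVRL3 had 4 reads together in SV-HUC-1, so all entered through J82 alone.

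RUNX1 led the other direction with 6 circRNAs, which had 461 reads in SV-HUC-1 against 42 in J82. PPP1CB, a catalytic subunit of protein phosphatase 1, had 236 reads in 3 circRNAs in SV-HUC-1 against 26 in J82. AMOTL1, an angiomotin that binds YAP, went from 163 to 54 reads over 3. BTAF1, a regulator of the TATA-binding protein, had 75 and 24 reads, and GTF2I, a general transcription factor, had 85 and 29. STAC had 57 reads in 3 circRNAs in SV-HUC-1 against 0 in J82, and these entered through SV-HUC-1 alone. Of genes with at least 3 listed circRNAs, ATP8A2, a phospholipid flippase, had 43 reads in SV-HUC-1 against 0 in J82, and GLCCI1, a glucocorticoid-induced transcript, had 0 in SV-HUC-1 against 56 in J82.

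Other genes split. Of 872 genes with at least 2 included circRNAs, 45 (5.16%) had at least 1 higher and at least 1 lower in J82. These calls use the scaled CPM, and only the ratio between the circRNAs of one gene is free of the scaling. CRIM1, a transmembrane protein that binds bone morphogenetic proteins, is an example. Its hsa_circ_0006330, which spans 83832 bases, had 1 read in SV-HUC-1 against 40 in J82, and 2 others with spans of 37884 and 18431 bases were also higher. Another, hsa_circ_0119881, with a span of 8816 bases, had 33 and 14 reads and was 2.24-fold (1.17 to 4.53) lower. CEP128, a centrosomal protein, had 5 higher and 1 lower of 8.

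UBAP2, a ubiquitin-associated protein, went mostly the other way, with 3 lower and 1 higher. Its hsa_circ_0003945 had 61 reads in SV-HUC-1 against 13 in J82, 4.45-fold (2.42 to 8.84) lower, while hsa_circ_0001851 had 11 and 28. FAM120A, an RNA-binding protein, likewise had 3 lower and 1 higher. GRHL2 split as well: its short main circRNA was lower, whereas hsa_circ_0085170 had 25 reads in SV-HUC-1 against 53 in J82, with 0 in T24 and was 2.23-fold (1.36 to 3.75) higher. PTK2 had 8 of 24 higher and 1 lower, with hsa_circ_0003221 at 82 and 186 reads and hsa_circ_0135922 at 16 and 3.

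The leading circRNA of a gene could change with the line. Among 501 genes with at least 2 included circRNAs and 30 reads in each library, a different circRNA led in 105, and in 37 of these the counting intervals of the ratios of the 2 leaders did not overlap. PSD3, an exchange factor for Arf6, is one. Its hsa_circ_0004458 held 66.1% of the reads of the gene's included circRNAs in SV-HUC-1 against 38% in J82, while hsa_circ_0002111 went from 27.6% to 60.7%. In CIZ1, which acts in DNA replication, hsa_circ_0088737 held 86.2% in SV-HUC-1 and 42.1% in J82, with 175 against 24 reads, and hsa_circ_0088744 stayed near its level at 28 and 33 reads. The gene's sum over all listed circRNAs was 3.13-fold (2.36 to 4.21) lower, while of its 2 included circRNAs one was lower and the other was not called. PTBP3, a splicing regulator of the polypyrimidine tract-binding family, passed from hsa_circ_0088072 (24 and 8 reads) to hsa_circ_0003500 (16 and 96). The J82 leader had the longer genomic span in 18 of the 37. Leaders were picked from the same counts, which sets the order of their 2 ratios, so the 37 are given as a description.

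The difference between the lines ran with genomic span. The span is the distance on the genome between the joined splice sites, introns included, so it is not the length of the circRNA. Of 288 circRNAs that span under 500 bases, 15.6% were at least 2-fold higher in J82 and 34% at least 2-fold lower, with a median log2 difference of -0.39. The median moved to -0.27 for the 810 circRNAs from 500 bases, to -0.14 for 1443 from 2000, to 0.26 for 1303 from 10000 and to 0.72 for 152 of 50000 bases or more. In that widest class 42.1% passed 2-fold upward in J82 and 12.5% downward.

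The ratio of summed CPM of J82 to SV-HUC-1 followed the same order, at 0.883, 0.896, 1.02, 1.22 and 1.72. T24 did not follow this order: its ratios to SV-HUC-1 for the same circRNAs were 0.923, 0.916, 0.916, 0.926 and 0.935. Both sets of ratios share the SV-HUC-1 library, and T24 took no part in choosing the circRNAs. Over all listed circRNAs, those from 10000 up to 50000 bases held 28.7% of the reads in SV-HUC-1 against 33.3% in J82, with 29.1% in T24, and those of 50000 or more held 2.09%, 3.39% and 2.26%.

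**Figure D3:**
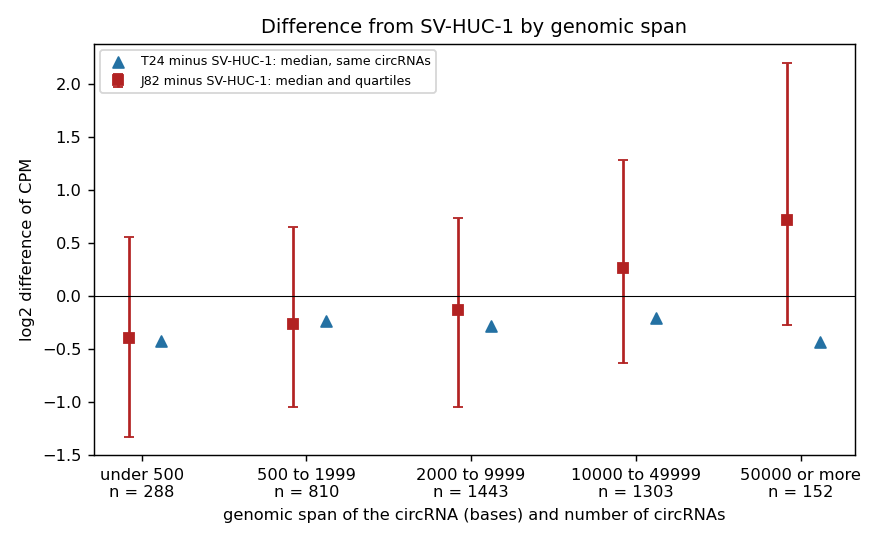
Log2 difference of CPM from SV-HUC-1 (y axis) by class of genomic span in bases (x axis, with the number of circRNAs). Squares and bars give the median and quartiles for J82, and triangles the median for T24 over the same circRNAs. The J82 medians climb from -0.39 to 0.72, while those of T24 lie between -0.44 and -0.21. Over all included circRNAs the T24 median is -0.27.

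With the boundary at 10000 bases, the medians were -0.21 for 2541 circRNAs and 0.32 for 1455, a difference of 0.53. It was 0.39 among circRNAs with a mean of 0.4 CPM or more, and 0.50 without chromosomes 4 and 12, both computed after the data were seen. The same comparison was made within genes. In 669 genes the longest included circRNA spanned at least 2 times the shortest. The longest had the higher log2 difference in 431 (64.4%) in J82 and in 385 in T24, with median gaps of 0.48 and 0.26. With at least 30 reads for both circRNAs, it was the higher in J82 in 35 of 58 genes (60.3%), with a median gap of 0.15. Among the 45 genes with opposite circRNAs, the higher ones had the larger median span in 38.

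The difference also varied by chromosome. On chromosome 4, 73 of 146 circRNAs (50%) were at least 2-fold higher in J82 and the median log2 difference was 1.02. On chromosome 12, 61 of 155 (39.4%) were at least 2-fold higher, with a median of 0.70. Chromosome 22 was at the other end, with 29 of 79 (36.7%) at least 2-fold lower, 5 at least 2-fold higher and a median of -0.66, followed by chromosome 10, with 63 of 167 (37.7%) at least 2-fold lower and -0.58. The same circRNAs had medians in T24 of 0.31 on chromosome 4, -0.14 on chromosome 12, -0.33 on chromosome 22 and -0.72 on chromosome 10. Over all 3996 circRNAs, which were chosen without T24, the T24 median was -0.27. Chromosome 10 was thus below the median of all circRNAs in both cancer lines. In T24, chromosomes 5 and 6 were nearly as low, at -0.62 and -0.58. Since circRNAs of one gene are not independent, reads summed by host gene are given too. On chromosomes 4 and 12, 30 of 86 and 49 of 127 host genes were at least 2-fold higher in J82, with medians of 0.76 and 0.60. On chromosomes 22 and 10, 18 of 54 and 32 of 115 were at least 2-fold lower, with medians of -0.61 and -0.44.

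Span and chromosome overlapped only in part. CircRNAs of 10000 bases or more had the higher median on 22 of 23 chromosomes, with chromosome 21 the exception at -0.81 against -0.35. That chromosome has only 43 included circRNAs, and the RUNX1 circRNAs, low and of wide span, are among them. On chromosome 12 both classes were above 0, at 0.43 under 10000 bases and 1.60 from there on. On chromosome 4 they stood at 0.58 and 1.32.

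**Figure D4:**
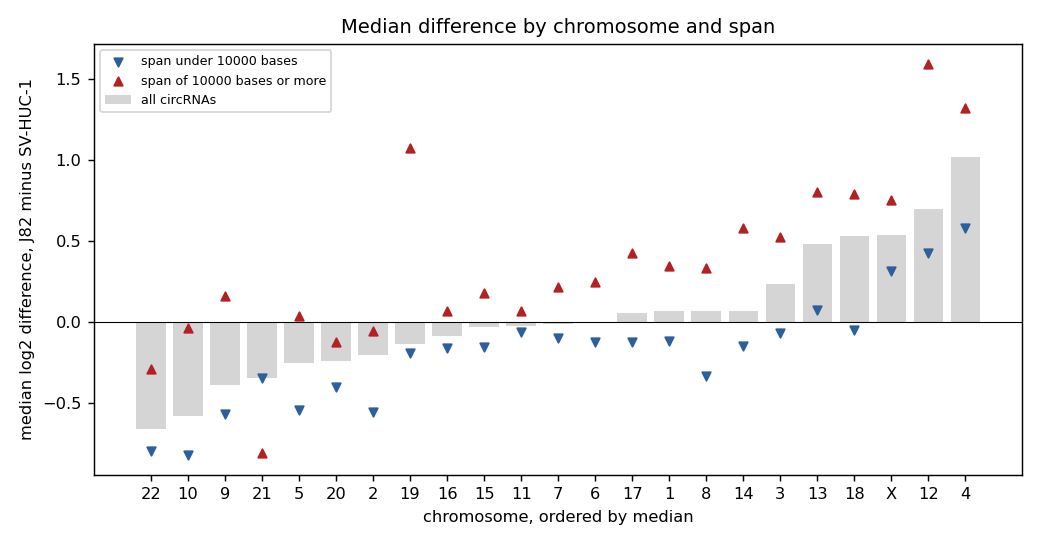
Median log2 difference of J82 minus SV-HUC-1 (y axis) by chromosome, ordered by the median of all its circRNAs (bars). Blue triangles pointing down are circRNAs that span under 10000 bases and red triangles pointing up those of 10000 or more. Chromosomes 22 and 10 are lowest at -0.66 and -0.58, and chromosomes 12 and 4 highest at 0.70 and 1.02.

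Neighbouring host genes differed together in places. For each chromosome, the run of 8 adjacent measured host genes with the median farthest from 0 was taken, a choice made on the values themselves and so given as a description. On chromosome 12, from 29786079 to 42792796 (hg19), TMTC1, DENND5B, BICD1, FGD4, DNM1L, SLC2A13, YAF2 and PPHLN1 had a median log2 difference of 2.16, and all 8 were above 0. Their counts were modest, at 65 reads together in SV-HUC-1 against 180 in J82, with 84 in T24, with YAF2, a Polycomb-associated protein, at 7, 33 and 21 and PPHLN1, which encodes periphilin, at 9, 42 and 13. FGD4, an exchange factor for Cdc42, was nearly level at 33 and 34 reads in SV-HUC-1 and J82.

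On chromosome 10, from 121335202 to 126650977, the run from TIAL1 to ZRANB1 had a median of -2.01, with 530 reads in SV-HUC-1 against 191 in J82, with 171 in T24. It holds FGFR2, a fibroblast growth factor receptor (87, 17 and 0 reads), OAT, ornithine aminotransferase (19, 3 and 8), and ZRANB1, a deubiquitinase (224, 60 and 83). TIAL1, an RNA-binding protein, did not share it, at 11, 12 and 28 reads. On chromosome 22, from 25423911 to 30061053, the median was -1.90. NF2, which encodes merlin, had 53 reads in SV-HUC-1 against 12 in J82, with 72 in T24 there, and CHEK2, a checkpoint kinase, had 25, 6 and 37. In that run T24 did not share the low level, and TTC28 went against its neighbours with 2, 38 and 115 reads.

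Further runs lay on chromosome 19, from 14854231 to 17628659 (median -2.14, including SLC1A6 and MYO9B), chromosome 5, from 150439878 to 157221980 (-1.64, 7 of 8 host genes at least 2-fold lower), and chromosome 15, from 33149215 to 41669502 (1.58). In the last, 7 of 8 were higher in J82, and the median in T24 was 1.64. It contains FMN1, a formin, and NUSAP1, a spindle protein, with 23 reads in SV-HUC-1 against 78 in J82, with 63 in T24. DNA copy number was not measured in these files.

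CircRNAs without a circBase ID were lower in J82 more often than the rest. Of 200 such circRNAs, 97 (48.5%) were at least 2-fold lower and 50 (25%) at least 2-fold higher, with a median log2 difference of -0.89, against 22.2% at least 2-fold lower and a median of 0.00 for the 3796 with an ID. In T24 the same 200 had a median of -1.35. Their mean level was low, with a median of 0.174 CPM against 0.288 CPM for those with an ID.

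Host genes were then read by role in lists, beside the 16.5% higher and 17% lower and the median of -0.03 over all 2647 measured. The lists were chosen with earlier results of these data known, and genes named beyond the 4 with the largest difference in a list were picked for their higher counts after the values were seen. In bulk RNA, fewer cells that make a circRNA and less of it per cell cannot be told apart. Transcription factors of the zinc finger, nuclear receptor and other families had 18 of 82 host genes higher in J82 and 10 lower, with a median of 0.43. SOX13, a Sry-related factor, had 47 reads in SV-HUC-1 against 123 in J82, with 17 in T24, 2.76-fold (1.96 to 3.95) higher, and HIF1A, the hypoxia-inducible factor, had 20, 53 and 30. NR2F2, an orphan nuclear receptor, was 10.1-fold (5.96 to 18.5) lower with 160, 15 and 5 reads, and MYBL2, a cell cycle regulator, had 236, 85 and 74. Gains and losses thus stood side by side in this list.

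Solute carriers, pumps and channels had 14 of 45 higher (31.1%) and 4 lower, with a median of 0.46. TRPC1, a cation channel, had 57 reads in SV-HUC-1 against 157 in J82, with 53 in T24, 2.90-fold higher in J82. SLC4A7, a sodium bicarbonate cotransporter, had 45, 101 and 128, and SLC12A2, which imports sodium, potassium and chloride, had 0, 18 and 2. SLCO3A1, an organic anion transporter, was lower, at 55, 21 and 1.

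Metabolic enzymes had 14 of 64 higher and 10 lower, with a median of 0.04. ME1, the cytosolic malic enzyme, had 18 reads in SV-HUC-1 against 125 in J82, with 19 in T24, 7.32-fold (4.44 to 12.7) higher, and its mitochondrial relative ME3 is among the 12 highest circRNAs. TKT, the transketolase of the pentose phosphate pathway, had 5, 41 and 5, TXNRD1, a thioredoxin reductase, 18, 62 and 9, and NNT, the mitochondrial transhydrogenase, 26, 97 and 48. DPYD, which breaks down pyrimidines, had 12, 81 and 23. In each of these J82 was highest. On the lower side was HMGCS1 of the sterol pathway (49, 14 and 30).

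Cytoplasmic kinases had 6 of 41 higher and 3 lower, with a median of 0.52. MAP3K5, a stress-activated kinase, had 18 reads in SV-HUC-1 against 74 in J82, with 98 in T24, and PRKCA, a protein kinase C, had 11, 42 and 29. PRKD3, a protein kinase D, was 5.79-fold (2.94 to 12.7) lower with 61, 10 and 18. In the phosphoinositide and PI3K-mTOR list, 6 of 26 were higher and none lower, with 2 host genes at least 2-fold lower whose interval held 1, and a median of 0.17. RICTOR, a subunit of mTOR complex 2, had 48 reads in SV-HUC-1 against 113 in J82, with 60 in T24, 2.48-fold (1.75 to 3.55) higher. A circular read says nothing of the amount of protein.

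Among growth factor receptors, ligands and adaptors 6 of 22 were higher and 4 lower, with a median of -0.01. VEGFC, a ligand of lymphatic growth, had 36 reads in SV-HUC-1 against 227 in J82, with 117 in T24, 6.64-fold (4.66 to 9.72) higher, and NRG1, a ligand of ERBB receptors, had 1, 31 and 13. Both ligands were higher in T24 too. MET, the receptor for hepatocyte growth factor, was lower at 42, 15 and 19, and EPHB2, an ephrin receptor, at 36, 2 and 6.

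In the Hippo pathway 2 of 22 were higher and 6 lower, with a median of -0.44. SAV1, the scaffold of the MST kinases, had 80 reads in SV-HUC-1 against 27 in J82, with 24 in T24, WWC1, or KIBRA, had 42, 9 and 2, and LATS1, a kinase that phosphorylates YAP, had 24, 10 and 21. These act upstream of the coactivator YAP. The 2 higher were TEAD4, a DNA-binding partner of YAP, with 2, 11 and 5, and WWC2, with 9, 22 and 13. A direction by position in the pathway was not tested. Wnt and beta-catenin genes had 2 of 15 higher and 4 lower, with a median of -0.63, with LRP5 at 85, 37 and 46 and its paralogue LRP6 at 18, 45 and 51. By their gene sums these related coreceptors lay on opposite sides, and their circRNAs differ in sequence as the genes do. LRP5 was itself split, with 1 of its 4 included circRNAs higher in J82 and 1 lower.

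Extracellular matrix and protease genes had 2 of 20 higher and 7 lower, with a median of -0.57. SULF2, which removes sulfate from heparan sulfate, had 42 reads in SV-HUC-1 against 2 in J82, with 1 in T24, 19.9-fold (5.19 to 170.0) lower in J82. ADAMTS12, a metalloproteinase, had 69, 28 and 11, while FBLN1, which encodes fibulin-1, was higher with 2, 14 and 21. The lists of integrins, focal adhesion and actin (8 higher and 7 lower of 38) and of polarity and junctions (7 and 6 of 25) had no common direction. PTPRK, an adhesion phosphatase, had 135, 302 and 11 reads, and NEDD9, a scaffold of focal adhesions, had 32, 5 and 0.

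DNA replication and repair had 4 of 58 higher and 12 lower (20.7%), with a median of -0.06. BRIP1, a helicase that works with BRCA1, had 115 reads in SV-HUC-1 against 43 in J82, with 86 in T24, 2.54-fold (1.77 to 3.69) lower, SMC3, a cohesin subunit, had 84, 29 and 71, and GINS1 of the replicative helicase 62, 21 and 36. In each, T24 lay nearer to SV-HUC-1 than J82 did. ERCC6L2, a relative of the repair gene ERCC6, was higher at 32, 112 and 93. Nuclear pore and transport genes had 1 of 35 higher and 5 lower, with NUP153, a basket nucleoporin, at 202, 83 and 47 and the importin KPNB1 at 155, 69 and 149.

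Chromatin regulators had 12 of 75 higher and 6 lower. CDYL2, a relative of CDYL, had 41 reads in SV-HUC-1 against 167 in J82, with 67 in T24, 4.29-fold (3.03 to 6.20) higher, although CDYL itself was level. KDM4B, a histone lysine demethylase, had 87, 188 and 170, and UHRF1, which guides maintenance DNA methylation, 20, 50 and 49. ASXL2, a Polycomb-associated factor, was lower at 45, 12 and 6. EHMT2, a histone methyltransferase with 6 and 46 reads in SV-HUC-1 and J82, is listed on an alternative haplotype of chromosome 6, where near-identical copies could share reads.

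Interferon, cytokine and NF-kB genes had 2 of 15 higher and 6 lower (40%), yet a median of 0.41, so count and median differ in sign. TRAF2, an adaptor of tumour necrosis factor receptors, had 23 reads in SV-HUC-1 against 6 in J82, with 8 in T24, and TNIP1, an inhibitor of NF-kB, had 17, 1 and 5. TNFRSF21, a death receptor, was higher at 120, 267 and 21. Members of the lists for splicing (7 and 7 of 71), ubiquitin ligases and deubiquitinases (14 and 13 of 87), membrane traffic (9 and 8 of 78), mitosis (6 and 5 of 58) and autophagy (2 and 2 of 15) were higher and lower in nearly equal numbers. Phosphatases had 6 higher and 7 lower of 29, p53 and cell death 3 and 4 of 19, hedgehog and cilium 4 and 4 of 19, and TGF-beta, BMP and Notch 2 and 2 of 21.

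**Figure D5:**
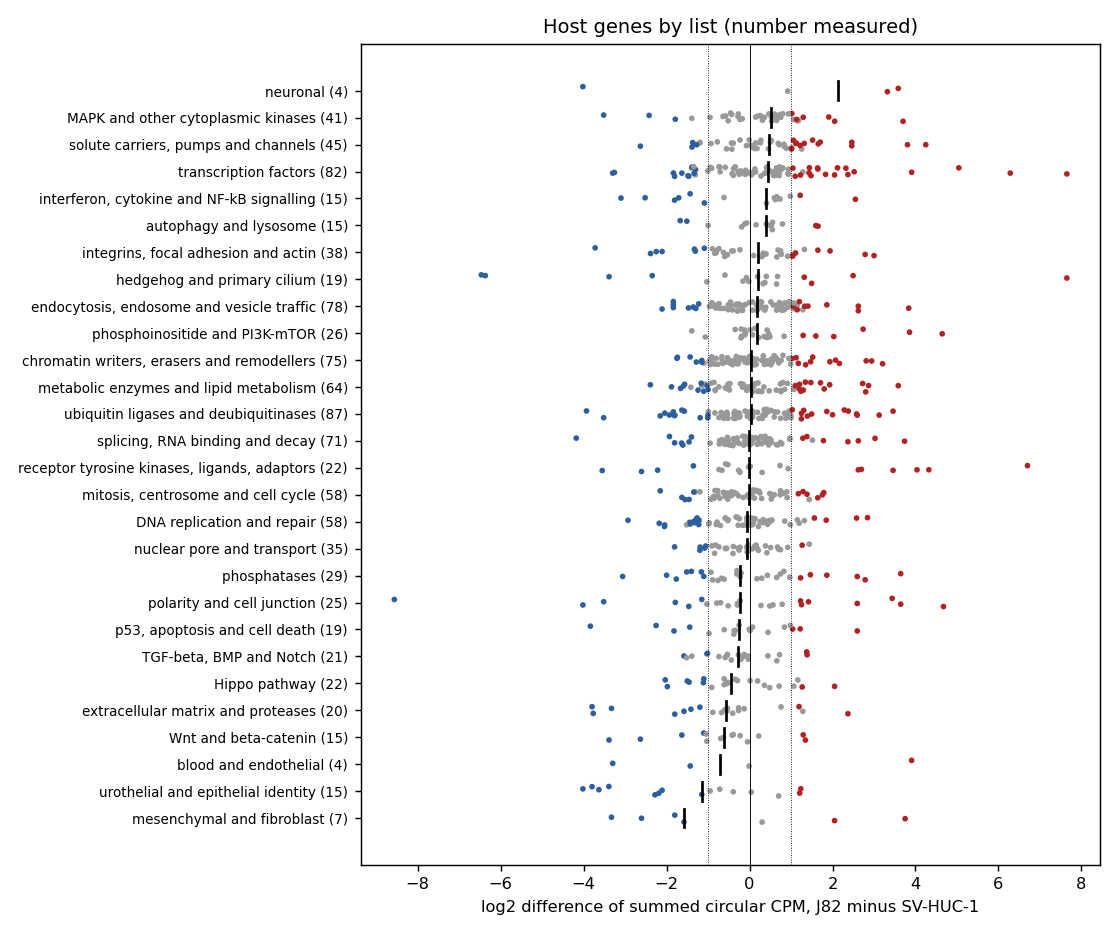
Log2 difference of summed circular CPM, J82 minus SV-HUC-1 (x axis), for measured host genes by list (y axis, number measured in brackets). Each point is 1 host gene, red where higher and blue where lower by the interval rule, grey otherwise. Black bars are list medians and dotted lines mark 2-fold. Medians run from -1.58 (mesenchymal) to 2.12 (neuronal, 4 host genes).

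Lineage markers were read as circular counts too. Of 22 urothelial and epithelial markers 9 had listed circRNAs, with 969 reads together in SV-HUC-1 against 428 in J82, with 29 in T24, so SV-HUC-1 and J82 both had such reads and T24 few. The uroplakins, UPK1A, UPK1B, UPK2 and UPK3A, which define differentiated urothelium, had no listed circRNA. Single markers differed: PPARG, a nuclear receptor of urothelial differentiation, had 65 reads in SV-HUC-1 against 101 in J82, with 25 in T24, and ESRP1, an epithelial splicing regulator, had 44, 43 and 0. LAMA3, a chain of laminin, had 116, 7 and 0. Over the wider list of urothelial and epithelial identity, 8 of 15 host genes were lower in J82 and 2 higher, with a median of -1.15 in J82 and -4.11 in T24.

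Markers of other cell types were read in the same way. Of 10 mesenchymal markers 3 were listed, with 265 reads in SV-HUC-1 against 64 in J82, with 20 in T24, and the wider mesenchymal list had 4 of 7 host genes lower and 2 higher. Of the 3, FN1, which encodes fibronectin (73, 6 and 4), and COL5A1 (190, 51 and 0) had fewer reads in J82, whereas ZEB1, a transcription factor of mesenchymal cells, had 2, 7 and 16. The 2 higher in the wider list were MYLK, myosin light chain kinase, with 2, 38 and 0 reads, and BNC2, a zinc finger protein, with 2, 11 and 1. Of 8 blood and endothelial markers FLI1 alone was listed (33, 11 and 44), and of 7 neuronal markers 3 were, with 20, 52 and 468 reads. In the wider blood and endothelial list 1 of 4 host genes was higher and 2 lower, and in the neuronal list 2 of 4 were higher and 1 lower. A gene without listed circRNAs may still be expressed, since many genes give few circRNAs.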

How the data were processed

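Per the labels' protocols, circular RNA was sequenced in 3 cell lines with 1 library each, from 2 μg of total RNA after ribosomal RNA removal and RNase R. The authors deposited 1 table of circRNAs with CPM values, named as TMM-normalized. Per the submitters' processing notes, edgeR, STAR, RSEM 1.2.15 and Bowtie2 2.1.0 took part, with build hg19. Neither the back-splice caller nor the base from which starts count was given in the sources used here.

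In each column 100% of the deposited CPM values were whole multiples, within 0.01 reads, of the column's lowest positive value, which gives the reads. A single read stood for 0.0201 CPM in SV-HUC-1, against 0.0211 in J82 and 0.0234 for T24. The SV-HUC-1 column spells the name slightly differently, and 0 value columns stayed unmatched. No listed circRNA fell below 5 reads in all libraries.

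Differences were taken as log2(CPM + 1 read of the shallower of the 2 libraries compared, 0.0211 CPM), with Python 3.11.15, pandas 2.3.3, numpy 2.4.6 and scipy 1.17.1. On this scale differences at low counts come out smaller. Ratios of CPM carry exact Clopper-Pearson 95% counting intervals. Ratios against 0 reads set that library to 3 reads, ignoring counting error in its partner. Reads have no molecular identifiers, so intervals and floors cover counting error only. With 1 library per line no test of the lines is possible, and no p-value is given. As an alternative, reads were put to a two-sided exact binomial test with Benjamini-Hochberg adjustment at 0.05, which compares the libraries and not the conditions. The calculations were tested on simulated data.

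The circRNAs and lists were chosen with earlier results of these data known. Named by rule were the 12 highest and 12 lowest by log2 difference, the 10 largest gains and 10 largest losses of CPM, the 8 most abundant within 1.1-fold, the 10 highest and 10 lowest host genes with at least 3 listed circRNAs, the 10 opposing host genes with most reads, up to 4 host genes per list and the 3 circRNAs outside the comparison with most T24 reads. Not all of these are printed, and some genes and a list are not reported here. CircRNAs without an annotated host gene (72 of those included) entered no host gene sum. Genes named from the neighbouring runs, the uniform sets and the changes of leading circRNA were chosen after their values were seen.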

Additional observations from a re-analysis of the deposited data

Results flagged for a closer look

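Among circRNAs below 10 reads in both SV-HUC-1 and J82, and so outside the comparison, 3 had the most reads in T24, a library the comparison does not use. T24 held 378 reads of hsa_circ_0132246 from RIMS1, a presynaptic active zone protein, against 5 for J82 and 0 for SV-HUC-1. It lies on the plus strand of hg19 chromosome 6, from 73005639 to 73043538. WSCD1 gave hsa_circ_0107325, on the plus strand of chromosome 17 from 5983690 to 5998543, and T24 held 190 reads of it, against 0 for J82 and 8 for SV-HUC-1. The last, which has no circBase ID, comes from the polarity gene PARD3 on the minus strand of chromosome 10, from 34661425 to 34667034. T24 held 68 reads of it, while SV-HUC-1 and J82 had 0.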

How the results depend on the processing

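No paired analysis was possible because each line has 1 library, and no replicate could be left out. Without a read filter, 2778 circRNAs were at least 2-fold higher in J82 and 2623 lower (1163 and 1165 with the interval rule), as were 922 and 946 host genes, and 94 host genes had opposite circRNAs. With at least 20 reads these counts were 395 and 385 (387 and 382), 317 and 301, and 10. At a 4-fold threshold they were 366 and 326 under both rules, 164 and 174, and 6. A read filter changes how many circRNAs are compared, so counts under other filters cannot be read as shares beside the main ones. The binomial test called 732 higher and 656 lower. Other pseudocounts (0.5 and 5 reads) and 2 other scalings kept each count within 1.5 times, and the scalings shifted J82 by -0.05 and -0.08 on the log2 scale. For the 50 named circRNAs, 387 values kept their side of the threshold, 9 no longer passed at 4-fold and 4 passed by the binomial test alone, with no change of direction. Of 174 list medians, 26 moved over 17 lists, and those of 10 lists changed sign in some setting (chromatin, hedgehog, integrins, metabolic enzymes, mitosis, phosphatases, polarity, receptor tyrosine kinases, splicing, ubiquitin), so no direction is read from them. The median gap by span stayed between 0.39 and 0.54, the former among circRNAs of 0.4 CPM or more, a setting added after the data were seen, as was leaving out chromosomes 4 and 12. Most circRNAs have few reads, so differences under 2-fold were mostly not detectable.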
